A study of Mus musculus with 24 samples.

Results

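Odorant-binding proteins and the lipocalins of the nasal and vomeronasal glands were followed in bulk RNAseq of the mouse main olfactory epithelium (OE). The members were chosen by name, as *Obp1a*, *Obp1b*, *Obp2a*, *Obp2b*, *Lcn3*, *Lcn4*, *Lcn11*, *Lcn13* and *Lcn14*. RefSeq lists *Lcn13* as another name of *Obp2a* and *Lcn14* as another name of *Obp2b*, and the table has no separate entry under either name. The 9 names therefore stand for 7 of the 45706 genes in the table, and all 7 passed the filter on low counts in every comparison. The study asked how gene expression in the OE differs between *WT* mice and *iRhom2-/-* mice. It sequenced 24 untreated mice, 3 per genotype at each of 5, 8, 10 and 30 weeks of age. The labels give all mice as of mixed strain, and the study's methods give 129Sv and C57BL/6 for the *iRhom2-/-* line. The *iRhom2-/-* mice carry a tm1b allele of *Rhbdf2*, the gene that encodes iRhom2, in which LacZ is driven by the iRhom2 promoter. The labels give 21 of the mice as male and 3 as female, namely mouse 3 of the *WT* mice of 8 weeks, mouse 3 of the *WT* mice of 10 weeks and mouse 3 of the *iRhom2-/-* mice of 10 weeks.

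Lipocalins are small secreted proteins whose barrel-shaped fold encloses a pocket for hydrophobic ligands. In the nose, odorant-binding proteins and related lipocalins are made by glands, among them the lateral nasal gland, the septal glands and the vomeronasal glands, and are released into the mucus, where they bind odorants and pheromones. They are gland products and not products of the olfactory sensory neurons (OSNs). Bulk RNAseq of dissected tissue counts transcripts of all cell types together, so fewer cells of a type and less RNA per cell cannot be told apart.

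The genes lie in 2 places in GRCm38. *Obp1a* (chromosome X, 78085505 to 78091374, minus strand) and *Obp1b* (chromosome X, 78186777 to 78192292, plus strand) encode subunits of the classical odorant-binding proteins and are X-linked. *Obp2a* (chromosome 2, 25700043 to 25703326), *Obp2b* (25737009 to 25740097), *Lcn3* (25765569 to 25768099) and *Lcn11* (25777017 to 25780279) lie in this order on the plus strand of chromosome 2. *Lcn4* (26667674 to 26671282) is on the minus strand of the same chromosome, farther along. *Lcn3* and *Lcn4* are known as vomeronasal secretory proteins, lipocalins made by glands of the vomeronasal organ and the nasal septum. The bases from 80 before to 20 after the RefSeq start of each gene (GRCm38.p6, 5′ to 3′ on the strand of the gene) are shown because pairs of these genes moved together across libraries. Capitals mark TATAAA, the letters of a TATA box.
*Obp1a*, chrX:78091355-78091454, minus strand: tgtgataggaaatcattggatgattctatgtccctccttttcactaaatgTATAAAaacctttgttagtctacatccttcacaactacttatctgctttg
*Obp1b*, chrX:78186728-78186827, plus strand: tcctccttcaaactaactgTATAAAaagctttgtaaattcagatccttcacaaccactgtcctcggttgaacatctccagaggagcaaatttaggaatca
*Obp2a*, chr2:25699994-25700093, plus strand: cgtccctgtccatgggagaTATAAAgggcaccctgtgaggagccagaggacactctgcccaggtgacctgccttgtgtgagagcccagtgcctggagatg
*Obp2b*, chr2:25736927-25737026, plus strand: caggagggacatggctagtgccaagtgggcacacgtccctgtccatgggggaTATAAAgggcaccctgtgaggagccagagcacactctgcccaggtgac
*Lcn3*, chr2:25765453-25765552, plus strand: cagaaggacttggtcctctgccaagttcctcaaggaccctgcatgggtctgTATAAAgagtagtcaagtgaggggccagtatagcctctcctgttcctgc
*Lcn4*, chr2:26671263-26671362, minus strand: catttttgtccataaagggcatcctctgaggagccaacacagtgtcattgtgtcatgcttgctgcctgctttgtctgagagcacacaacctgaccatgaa
*Lcn11*, chr2:25776937-25777036, plus strand: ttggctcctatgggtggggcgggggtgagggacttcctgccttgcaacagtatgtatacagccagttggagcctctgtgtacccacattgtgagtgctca

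TATAAA was found in the shown bases of 5 of the 7 genes, namely *Obp1a*, *Obp1b*, *Obp2a*, *Obp2b* and *Lcn3*. It began 30 bases before the RefSeq start in *Obp1a*, 29 in *Lcn3* and 28 in *Obp2b*, and 61 bases before it in both *Obp1b* and *Obp2a*. These distances depend on the start used. The GENCODE starts of *Obp1b* (78186777) and *Obp2a* (25700043) lie between TATAAA and the RefSeq start, so they are nearer to the letters. For *Lcn3* the GENCODE start (25765569) lies after the RefSeq start, farther from the letters. On the strand of the gene, 3.70% of the 32851 promoters in the RefSeq table held TATAAA in the same 100 bases. On either strand of 300 bases (250 before to 50 after the start) the share was 13.6% of all promoters, against the same 5 of 7 genes. In *Lcn4* and *Lcn11* the 6 letters were not in the window. The promoters of *Obp2a* and *Obp2b* were 98.5% identical over 267 aligned bases, and those of *Obp1a* and *Obp1b* were 67.3% identical over 269.

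The transcripts are alike enough to bear on the counts of some members. *Obp1b* is 99.3% identical over the aligned bases to *Gm14743*, a neighbouring gene on the X chromosome, and 73.5% of its 50-base windows occur in that gene too, so the split of reads between *Obp1b* and *Gm14743* is uncertain. *Obp2a* and *Obp2b* are 75.8% identical and share 81 windows, while *Obp1a* and *Obp1b* are 73.7% identical. *Lcn3*, *Lcn4* and *Lcn11* share no 50-base window with the other genes compared.

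Libraries held 25333822 to 48660394 counts on genes (median 34233812). The mice of 8 weeks, of 10 weeks, and of 5 and 30 weeks together were 3 submissions to the sequencing core, so age and submission cannot be told apart. The 12 columns of the mice of 5 and 30 weeks (libraries 7 to 12 of each genotype) could be tied to genotype and submission, but not to an age or a single mouse. *Rhbdf2*, the targeted gene, was lower in every *iRhom2-/-* library than in every *WT* library of its submission, at 20.2 to 23.6 against 11.0 to 13.4 CPM, counts per 1000000 counts of a library, at 8 weeks, 20.7 to 21.5 against 7.19 to 10.2 at 10 weeks and 19.3 to 25 against 7.73 to 12.4 at 5 and 30 weeks. Reads of *Rhbdf2* thus remained in the *iRhom2-/-* libraries. The exact permutation test of *Rhbdf2* gave a two-sided p of 0.1 at 8 and at 10 weeks, the smallest that 3 against 3 mice allow, and 0.00216 at 5 and 30 weeks. The library labelled female among the *WT* mice of 8 weeks had 9 counts of *Xist* and 1994 of the Y-linked *Ddx3y*, whereas the other libraries labelled female had 6814 and 9230 counts of *Xist* and 2 and 3 of *Ddx3y*, so its sex label goes against its reads. A pair of libraries stood apart. *WT* mouse 1 of 8 weeks had the highest sum of the lymphocyte and macrophage markers, and *iRhom2-/-* mouse 2 of 10 weeks had the highest sum of the nasal gland and erythrocyte genes, so the members, and the genes of the lists called beside them, are also given without them.

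Per transcript length, the odorant-binding proteins of the X chromosome and *Obp2a* were the most abundant of the 7 genes. The median over the 24 libraries was 1690 CPM per kb for *Obp1b*, 1605 for *Obp1a* and 1161 for *Obp2a*. Further down came *Lcn11* at 347 CPM per kb, *Obp2b* at 108, *Lcn3* at 54.5 and *Lcn4* at 14.3. The order held within most libraries at its lower steps, with *Obp2a* above *Lcn11* in 23 of 24 libraries, *Obp2b* above *Lcn3* in 20 and *Lcn3* above *Lcn4* in 23. It did not hold at the top, where *Obp1b* was above *Obp1a* in 10 of 24 and *Obp1a* above *Obp2a* in 16, nor between *Lcn11* and *Obp2b* (14 of 24). The highest member per kb was *Obp1a* in 10 libraries, *Obp2a* in 8 and *Obp1b* in 6.

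**Figure D1:**
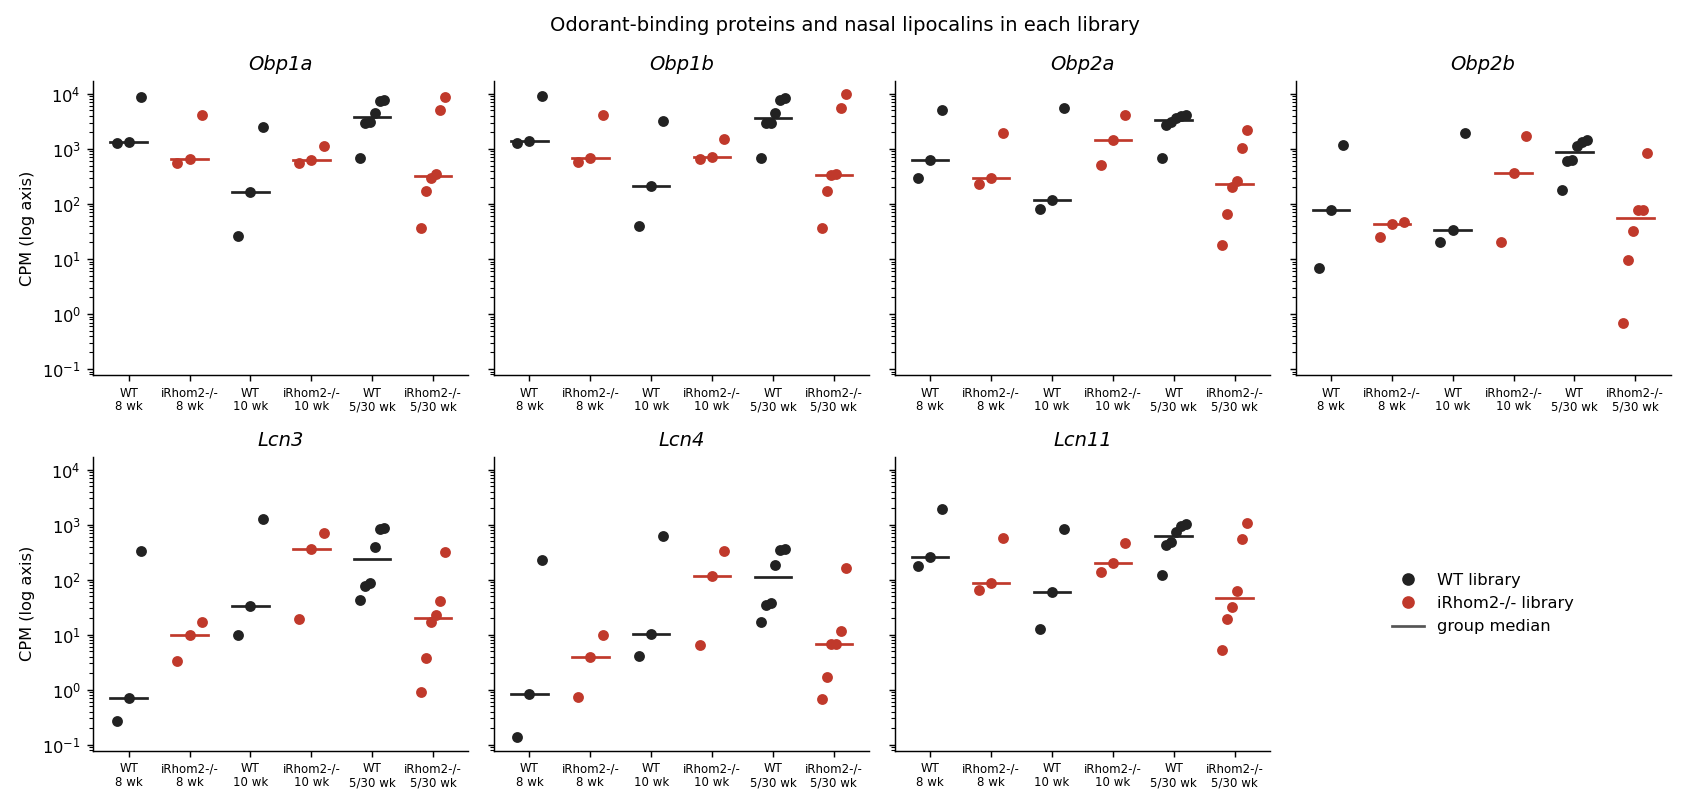
Level of each of the 7 genes in every library, as CPM on a log axis, by submission and genotype, where each point is 1 library. *Lcn3* and *Lcn4* span more than 3 powers of 10, from under 1 CPM in *WT* mice 2 and 3 of 8 weeks to 1273 and 632 CPM in *WT* mouse 2 of 10 weeks, and the genotypes overlap in every submission.

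*Obp1a* was present in every library at very different levels. At 8 weeks it was at 8840, 1361 and 1294 CPM in *WT* mice 1 to 3 and at 652, 4097 and 563 CPM in *iRhom2-/-* mice 1 to 3. At 10 weeks *Obp1a* was at 26.2, 2498 and 168 CPM in the *WT* mice and at 563, 1137 and 635 CPM in the *iRhom2-/-* mice. In the mice of 5 and 30 weeks it ranged from 698 to 7776 CPM in *WT* (median 3802, n = 6) and from 37.2 to 8966 CPM in *iRhom2-/-* (median 328, n = 6). The genotypes overlapped in every submission. Of the 6 *iRhom2-/-* libraries of 5 and 30 weeks, 4 lay below every *WT* library and 1 lay above every *WT* library. Between the highest and the lowest of the 24 libraries *Obp1a* differed 342-fold.

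*Obp1b* followed *Obp1a* library by library. It was at 9125, 1385 and 1309 CPM in the *WT* mice of 8 weeks and 680, 4090 and 581 CPM in the *iRhom2-/-* mice. At 10 weeks *Obp1b* was at 39.6, 3177 and 213 CPM in *WT* and 657, 1548 and 720 CPM in *iRhom2-/-*. Its median at 5 and 30 weeks was 3701 CPM in *WT* (683 to 8434) and 341 CPM in *iRhom2-/-* (36.7 to 9809). The same libraries were high and low as for *Obp1a*, and the ratio of *Obp1a* to *Obp1b* counts stayed between 0.662 and 1.07 in all 24. Since *Gm14743* could take reads of *Obp1b*, the level of *Obp1b* is less certain than that of *Obp1a*.

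*Lcn11*, a lipocalin named by sequence whose function is little known, lies on chromosome 2 but had the pattern of the X-linked pair. It was at 1937, 178 and 254 CPM in the *WT* mice of 8 weeks and at 87.8, 576 and 65.0 CPM in the *iRhom2-/-* mice. At 10 weeks *Lcn11* was at 12.4, 844 and 59.1 CPM in *WT* and 198, 462 and 138 CPM in *iRhom2-/-*. The *WT* libraries of 5 and 30 weeks ranged from 124 to 1039 CPM (median 621) and the *iRhom2-/-* libraries from 5.16 to 1050 CPM (median 47.1). As for *Obp1a*, 4 of the 6 *iRhom2-/-* libraries were below every *WT* library and 1 was above. The count ratio of *Obp1a* to *Lcn11* lay between 2.11 and 9.37, while over the 24 libraries *Obp1a* ranged 342-fold and *Lcn11* 375-fold.

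*Obp2a* and *Obp2b* are the pair of neighbours with nearly identical promoters. *Obp2a* was at 5070, 298 and 628 CPM in the *WT* mice of 8 weeks and at 291, 1976 and 226 CPM in the *iRhom2-/-* mice. At 10 weeks *Obp2a* was at 79.9, 5651 and 116 CPM in *WT* and 504, 4118 and 1481 CPM in *iRhom2-/-*. In libraries of 5 and 30 weeks *Obp2a* had a median of 3336 CPM in *WT* (696 to 4062) and 235 CPM in *iRhom2-/-* (17.7 to 2218). The genotypes overlapped, with 4 of 6 *iRhom2-/-* libraries below every *WT* library of 5 and 30 weeks and none above every *WT* library. *Obp2b* was at 1170, 6.84 and 78.1 CPM in the *WT* mice of 8 weeks and at 46.4, 43.5 and 24.9 CPM in the *iRhom2-/-* mice. At 10 weeks *Obp2b* was at 20.3, 1978 and 33.2 CPM in *WT* and 20.8, 1715 and 359 CPM in *iRhom2-/-*. The median of *Obp2b* at 5 and 30 weeks was 878 CPM in *WT* (177 to 1427) and 55.2 CPM in *iRhom2-/-* (0.679 to 855). Here 5 of the 6 *iRhom2-/-* libraries lay below every *WT* library, and library 11 lay within the *WT* range. *Obp2b* was the more variable of the pair, with a 2913-fold range over the 24 libraries against 319-fold for *Obp2a*, and the ratio of *Obp2a* to *Obp2b* counts ran from 2.40 to 45.4.

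*Lcn3* and *Lcn4* were close to undetected in some libraries and abundant in others. *Lcn3* was at 327, 0.274 and 0.706 CPM in the *WT* mice of 8 weeks and at 16.9, 3.35 and 9.90 CPM in the *iRhom2-/-* mice. At 10 weeks *Lcn3* was at 9.86, 1273 and 33.0 CPM in *WT* and 19.7, 701 and 363 CPM in *iRhom2-/-*. Its median at 5 and 30 weeks was 242 CPM in *WT* (43.0 to 881) and 19.8 CPM in *iRhom2-/-* (0.917 to 320). *WT* mice 2 and 3 of 8 weeks were the lowest of all libraries although mouse 1 of the same group was 1197-fold above mouse 2, and the 3 *iRhom2-/-* mice of that age lay in between. The lowest value rests on 12 counts of *Lcn3* in *WT* mouse 2, above the 3 counts that a count of 0 allows. *Lcn4* was at 226, 0.137 and 0.853 CPM in the *WT* mice of 8 weeks and at 9.98, 0.738 and 3.94 CPM in the *iRhom2-/-* mice. At 10 weeks *Lcn4* was at 4.11, 632 and 10.3 CPM in *WT* and 6.40, 331 and 115 CPM in *iRhom2-/-*. The median of *Lcn4* at 5 and 30 weeks was 112 CPM in *WT* (17.2 to 366) and 6.80 CPM in *iRhom2-/-* (0.679 to 162). For both genes 5 of the 6 *iRhom2-/-* libraries lay below every *WT* library at 5 and 30 weeks, and library 11 lay within the *WT* range. The highest and lowest of the 24 libraries differed 4650-fold for *Lcn3* and 4618-fold for *Lcn4*.

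**Figure D2:**
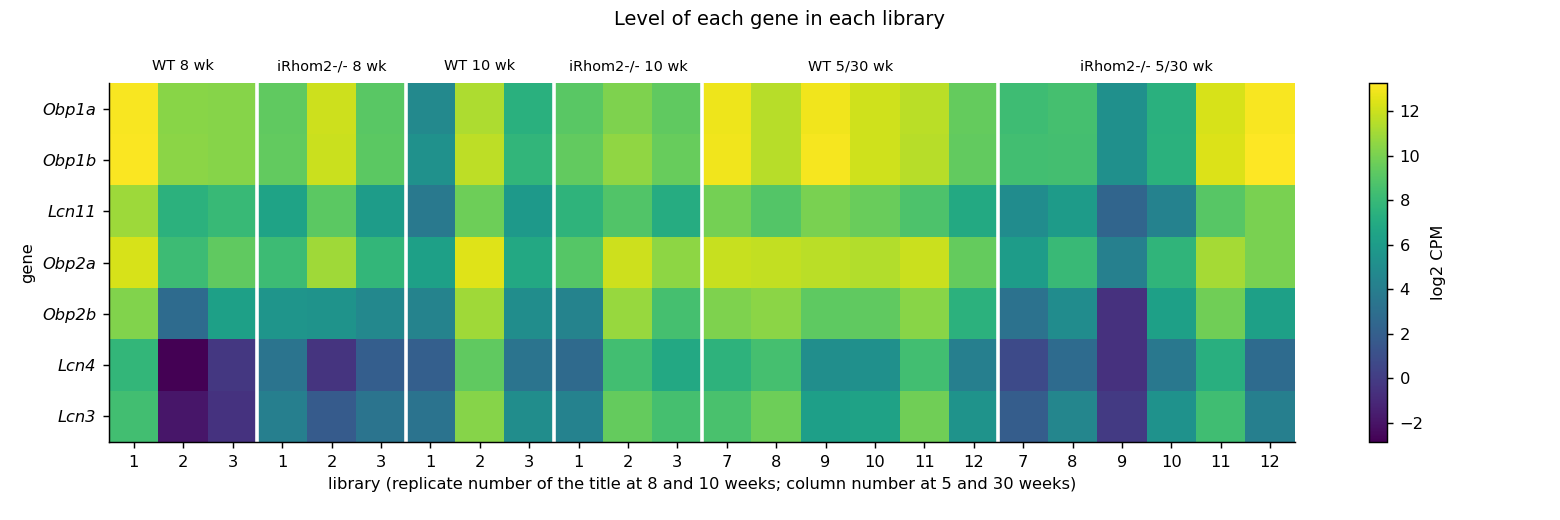
Level of each gene in each library, drawn as log2 CPM without centring on the mean of the gene, with libraries ordered by submission and genotype. *Obp1a*, *Obp1b* and *Lcn11* share a pattern and *Lcn3* and *Lcn4* share another, and *WT* mouse 2 of 8 weeks holds 1361 CPM of *Obp1a* but 0.274 CPM of *Lcn3*.

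Mice of the same submission and genotype differed far more in these genes than in most others. The groups of 5 and 30 weeks hold mice of both ages, so part of their spread may lie between ages. The standard deviation of log2 CPM within groups was 2.19 for *Obp1a*, 2.20 for *Obp1b*, 2.10 for *Obp2a*, 2.79 for *Obp2b*, 3.01 for *Lcn3*, 3.03 for *Lcn4* and 2.14 for *Lcn11*. The median over all 20763 genes tested was 0.26. The 7 genes ranked between 19 and 121 from the most variable. Together they took from 0.0106% of all counts (*iRhom2-/-* library 9 of 5 and 30 weeks) to 2.52% (*WT* mouse 1 of 8 weeks). Within the *WT* mice of 10 weeks alone, which were sequenced to nearly equal depth, the share ran from 0.0176% to 1.47%.

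Across the 24 libraries pairs of members moved together, and the pairs described here were chosen after the values were seen. *Obp1a* and *Obp1b* had a Pearson r of 0.998 and a Spearman rho of 0.990 on log2 CPM (n = 24, permutation p = 1e-05, the smallest that the permutations can give, adjusted 2e-05 over the 21 pairs). Without the 2 libraries farthest from the median r was 0.997, and within submissions it was at least 0.998. *Lcn3* and *Lcn4* had r = 0.989 and rho = 0.984 (permutation p = 1e-05, adjusted 2e-05), r = 0.991 without the 2 farthest libraries, and r of 0.976 at 8 weeks, 0.997 at 10 weeks and 0.993 at 5 and 30 weeks. These 2 genes share no 50-base window and lie apart on chromosome 2. *Obp1a* and *Lcn11* had r = 0.962 and rho = 0.958 (permutation p = 1e-05, adjusted 2e-05), r = 0.947 without the 2 farthest libraries, and 0.989, 0.988 and 0.995 within the 3 submissions. *Obp2a* and *Obp2b* had r = 0.921 and rho = 0.900 (permutation p = 1e-05, adjusted 2e-05), r = 0.882 without the 2 farthest libraries, and 0.809, 0.927 and 0.974 within submissions.

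The pairs were not sharply divided from one another. *Obp2a* and *Lcn11* had r = 0.925, *Obp2b* and *Lcn4* r = 0.902 and *Obp2b* and *Lcn3* r = 0.885, close to the 0.921 of *Obp2a* and *Obp2b*. Of the 21 pairs, *Obp1a* and *Lcn3* had the lowest r. Their values were r = 0.437 (permutation p = 0.0339, adjusted 0.0339) and rho = 0.393 (permutation p = 0.0593, adjusted 0.0593). Without the 2 libraries farthest from the median r was 0.320, and within submissions it was 0.435 at 8 weeks, 0.847 at 10 weeks and 0.710 at 5 and 30 weeks. *WT* mouse 2 of 8 weeks shows the parting most plainly, with 59689 counts of *Obp1a* and 12 of *Lcn3*, a ratio of 4974. In *iRhom2-/-* mouse 2 of 10 weeks the same ratio was 1.62, and its median over the libraries was 22.9. By contrast the ratio of *Lcn3* to *Lcn4* counts stayed between 0.829 and 4.54.

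**Figure D3:**
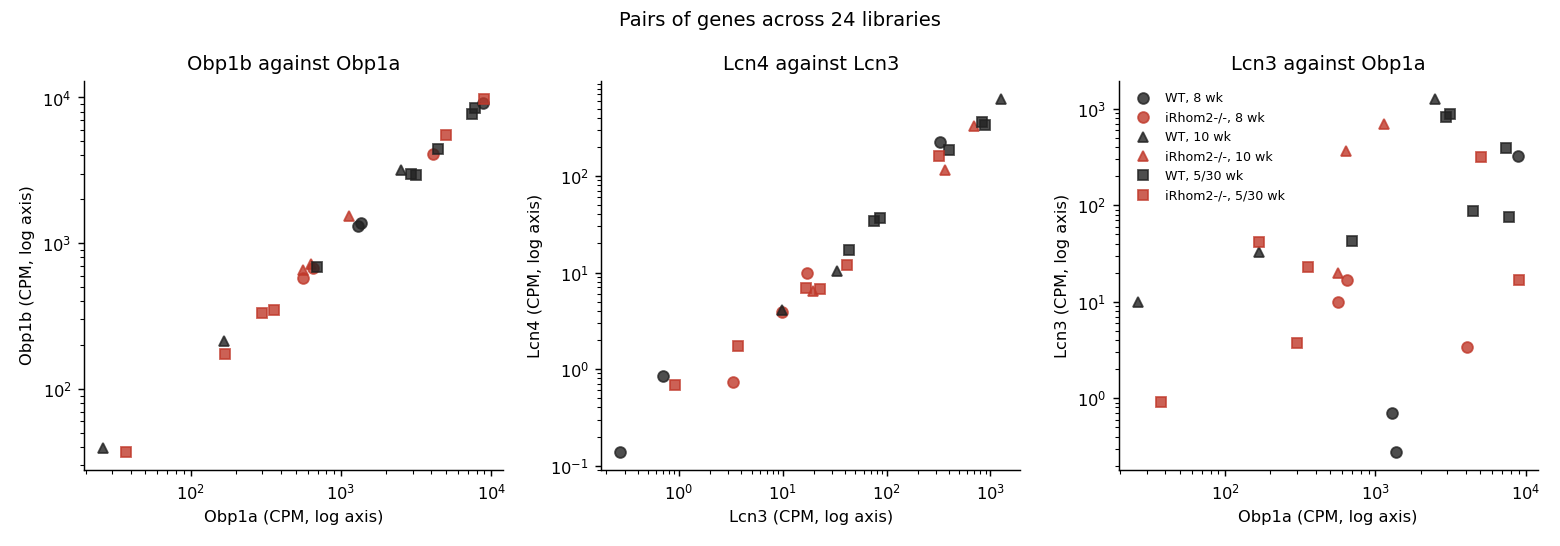
Scatter plots of CPM on log axes for pairs of members, where each point is 1 of the 24 libraries with genotype and submission marked. Each r is of log2 CPM. *Obp1a* and *Obp1b* (r = 0.998) and *Lcn3* and *Lcn4* (r = 0.989) lie along a line, while *Obp1a* and *Lcn3* (r = 0.437) scatter.

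Outside the members, the genes whose log2 CPM followed them most closely over the 24 libraries included other secreted proteins. For *Obp1a* they were *Gm14744* (r = 0.984), a further X-linked gene of the odorant-binding protein family, *5430402E10Rik* (0.979) and *BC051076* (0.975). The same 3 genes came first for *Obp1b*, with r of 0.991, 0.987 and 0.980. For *Lcn11* they were *Gm14744* (0.991), *BC051076* (0.976) and *Mup4* (0.975), a major urinary protein of the nasal glands that is also a lipocalin. *Gm14744* shares 72.7% of its windows with other genes of its family, so its level is uncertain too. For *Obp2a* the first were *Scgb2b27* (0.918), a secretoglobin, *Gm14744* (0.903) and *Mup4* (0.902). For *Obp2b* they were *Dmbt1* (0.874), a mucosal scavenger protein of glands, *Scgb2b27* (0.801) and *Scgb1b27* (0.772). *Dmbt1* also came first for *Lcn3* (0.786) and *Lcn4* (0.833), followed by *Ldha* (0.758 and 0.766) and *Ncald* (0.731 and 0.752). With each group centred on its mean, r was 0.908 and 0.913 for *Dmbt1*, 0.685 and 0.686 for *Ldha* and 0.762 and 0.775 for *Ncald*. The libraries are the same for every pair, and no p is attached to these values.

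No member passed the threshold between genotypes at 8 weeks, although all 7 were lower on average in *iRhom2-/-* mice. In edgeR's quasi-likelihood test, with a Benjamini-Hochberg adjusted p of 0.1 as the threshold over all genes tested, 4.98% of the 19335 genes tested were called and 0 of the 7 members. The number of members with an unadjusted p under 0.05 in edgeR was 0, against 19.8% of all genes. DESeq2 called 0 and had 1 member with an unadjusted p under 0.05, but it gave no adjusted p for *Lcn3*, *Lcn4* and *Lcn11*. The share of all genes with a negative value was 50.2%, and the median of the members was -1.73 against -0.0013 over all genes (log2 fold change, *iRhom2-/-* against *WT*). *Obp2b* differed by -3.48 (SE 1.5, 95% interval -7.00 to 0.038, edgeR adjusted p = 0.256) and *Lcn4* by -3.98 (SE 2.12, edgeR adjusted p = 0.343). *Lcn3* differed by -3.48 (SE 2.03), *Lcn11* by -1.73 (SE 1.14), *Obp2a* by -1.30 (SE 1.20), *Obp1b* by -1.17 (SE 1.01) and *Obp1a* by -1.14 (SE 1.0), with edgeR adjusted p between 0.383 and 0.584. For *Obp1a*, *Obp1b*, *Obp2a* and *Lcn11*, 2 of the 3 *iRhom2-/-* mice lay below every *WT* mouse, and mouse 2 was the highest. Without *iRhom2-/-* mouse 2, *Obp1a* came to -2.69, *Obp1b* to -2.67, *Obp2a* to -2.98 and *Lcn11* to -3.40. The edgeR adjusted p of these was at least 0.322. The sign of most values depended on *WT* mouse 1. Without it, 6 of the 7 values turned positive, *Obp1a* to 0.39 and *Obp2a* to 0.83, and *Lcn3* came to 4.35 with an edgeR adjusted p of 0.0613 (0.0613 to 0.937 over the alternatives). *Obp2b* came to -0.16 without that mouse. In the same library the lymphocyte markers summed to 1405 CPM, against 109 and 111 CPM in the other *WT* mice of 8 weeks and 32.2 to 52.0 CPM in the *iRhom2-/-* mice. The part of this in the values of the lipocalins was not tested.

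At 10 weeks the members were nearly level between genotypes on average. edgeR called 0 of 7, against 0.197% of the 18764 genes tested. DESeq2 called 0 but gave no adjusted p for *Obp1a* and *Obp1b*. The number with an unadjusted p under 0.05 was 0, against 7.79% of all genes. A negative value was found for 5 of 7, against 48.6% of all genes. *Obp2a* differed by 0.064 (SE 1.45), *Obp2b* by 0.052 (SE 1.75), *Lcn3* by -0.28 (SE 1.62), *Lcn4* by -0.51 (SE 1.72), and *Obp1a*, *Obp1b* and *Lcn11* by -0.20 to -0.23 (SE 1.22 to 1.23), with edgeR adjusted p of 0.968 to 0.996. These values are averages of very unlike mice, with mouse 2 the highest in both genotypes for all genes. Without *WT* mouse 2, *Obp2b* came to 4.73, *Lcn4* to 4.41, *Obp2a* to 4.40, *Lcn3* to 4.10, *Obp1a* to 3.02, *Obp1b* to 2.97 and *Lcn11* to 2.91. Without *iRhom2-/-* mouse 2, which had a nasal gland sum of 273182 CPM against 35147 and 39157 CPM in its group, *Obp2b* came to -1.86 and *Obp2a* to -1.0. None of these passed the threshold.

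At 5 and 30 weeks the members were lower on average in *iRhom2-/-* mice, with wide intervals. edgeR called 0 of 7, against 1.07% of the 18481 genes tested, and DESeq2 called 0. An unadjusted p under 0.05 was found for 1 member, against 14.2% of all genes. All 7 values were negative, against 50.3% of all genes, with a median of -2.24 against -0.0015 over all genes. *Obp2a* differed by -2.24 (SE 0.89, 95% interval -4.15 to -0.33, edgeR adjusted p = 0.28). *Lcn3* differed by -2.52 (SE 1.17, adjusted p = 0.353 in edgeR), *Lcn4* by -2.38 (SE 1.17, adjusted p = 0.38 in edgeR) and *Obp2b* by -2.34 (SE 1.12, adjusted p = 0.367 in edgeR). Values nearer to 0 were found for *Lcn11* at -1.12 (SE 1.01), *Obp1a* at -0.81 (SE 1.05) and *Obp1b* at -0.72 (SE 1.07), with edgeR adjusted p of 0.664 to 0.812. Libraries 11 and 12 of *iRhom2-/-* had 5018 and 8966 CPM of *Obp1a*, against 37.2 to 357 CPM in libraries 7 to 10. All 7 values stayed negative when each library was left out in turn, and library 11 moved *Lcn3*, *Lcn4* and *Obp2b* most. Without library 12, *Obp1a* came to -1.88, *Obp1b* to -1.80 and *Lcn11* to -2.24, with edgeR adjusted p of at least 0.371. Without library 11, *Lcn4* came to -4.87, *Lcn3* to -4.50 and *Obp2b* to -4.46, and none passed the threshold.

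Over all 24 mice, with the submission as a term, no member passed the threshold either. edgeR called 0 of 7, against 1.97% of the 20763 genes tested, and DESeq2 called 0. An unadjusted p under 0.05 was found for 3 of 7 members, *Obp2b*, *Lcn3* and *Lcn4*, against 12.4% of all genes. All 7 values were negative, against 50.3% of all genes, with a median of -1.45 against -0.0011. This fit uses the same libraries as the preceding comparisons and is no independent test of them. *Lcn4* differed by -2.29 (SE 1.07, 95% interval -4.50 to -0.083, edgeR adjusted p = 0.382), *Lcn3* by -2.23 (SE 1.05, 95% interval -4.40 to -0.048, edgeR adjusted p = 0.391) and *Obp2b* by -2.07 (SE 0.99, 95% interval -4.12 to -0.026, edgeR adjusted p = 0.396). *Obp2a* differed by -1.45 (SE 0.77, edgeR adjusted p = 0.471) and *Lcn11* by -1.05 (SE 0.73, edgeR adjusted p = 0.623). *Obp1a* differed by -0.75 (SE 0.72) and *Obp1b* by -0.72 (SE 0.73), with edgeR adjusted p of 0.752 and 0.769. Leaving out each library in turn kept all 7 negative. *WT* mouse 1 of 8 weeks moved the value of *Lcn3* to -1.12, of *Lcn4* to -1.18 and of *Obp2b* to -1.28, and *iRhom2-/-* library 11 moved them to -3.25, -3.59 and -3.20. Without library 12, *Obp1a* came to -1.25, *Obp1b* to -1.23 and *Lcn11* to -1.59. Where the fit was limited to the 12 mice of 8 and 10 weeks and their replicate numbers were used as a block, all 7 values were positive, from 0.00036 for *Lcn11* to 1.21 for *Lcn3*, and 0 were called.

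The median SE of the members was 0.77 over all mice, against 0.108 over all genes, and 97.6% of the other genes had an SE below that of every member. At 8, 10 and 5 and 30 weeks the median SE of the members was 1.20, 1.45 and 1.07. Over all mice the 95% interval ran from -2.24 to 0.75 for *Obp1a*, from -2.22 to 0.79 for *Obp1b* and from -2.56 to 0.46 for *Lcn11*. The absence of a call does not show that the genotypes were alike.

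**Figure D4:**
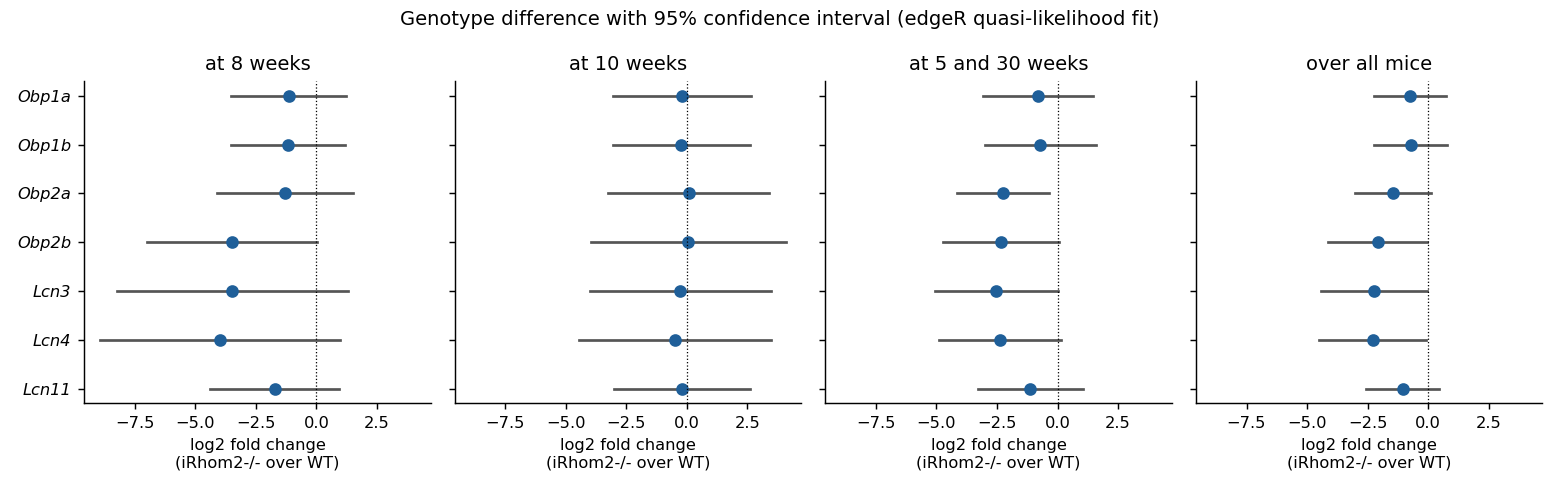
Log2 fold change of each gene, *iRhom2-/-* against *WT*, with 95% intervals from edgeR at 8 weeks, at 10 weeks, at 5 and 30 weeks and over all 24 mice. Values lie below 0 except for *Obp2a* (0.064) and *Obp2b* (0.052) at 10 weeks, and adjusted p was above 0.1 for every gene in every panel.

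The genotype difference was not shown to differ between submissions for any member. The interaction in edgeR called 0 of 7, against 0.0482% of all genes tested, with unadjusted p from 0.391 to 0.911, so that 0 of 7 had a p under 0.05, against 12.7% of all genes, and DESeq2 called 0. Between 10 and 8 weeks, which were also separate submissions, edgeR called 0 of 7, against 51% of the 20030 genes tested. The number of members with an unadjusted p under 0.05 in edgeR was 0, against 50.8% of all genes. DESeq2 called 2, *Lcn3* and *Lcn4*, and gave no adjusted p for *Obp1a*, *Obp1b* and *Lcn11*. The vomeronasal secretory proteins were higher on average at 10 weeks, *Lcn3* by 3.58 (edgeR adjusted p = 0.113) and *Lcn4* by 3.20 (edgeR adjusted p = 0.166), as was *Obp2b* by 2.46 (edgeR adjusted p = 0.231), whereas *Obp1a* differed by -1.63 (edgeR adjusted p = 0.173). Without *WT* mouse 1 of 8 weeks, edgeR called *Lcn3* (6.60), *Lcn4* (6.12) and *Obp2b* (4.11) as higher at 10 weeks. Without *WT* mouse 1 or 3 of 10 weeks it called *Lcn3* (4.09 or 4.08), and without *WT* mouse 2 it called *Obp1a* (-2.75).

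Between mice labelled female and male, all 7 values were negative (-2.05 to -1.31, labelled female against labelled male) but none passed the threshold. edgeR called 0 of 7 with an adjusted p of 0.988, against 0% of all genes tested, and the number with an unadjusted p under 0.05 was 0, against 2.79% of all genes, while DESeq2 called 0. The fit held the 12 mice of 8 and 10 weeks, and it did not call *Xist* itself (7.45, edgeR adjusted p = 0.225). It therefore cannot show that the sexes were alike in the members. There are 3 libraries labelled female, among them the library of 8 weeks whose reads go against its label. Without that library the values stayed negative, from -1.74 for *Lcn11* to -0.54 for *Lcn3*, with an edgeR adjusted p of at least 0.964.

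Other lipocalins were measured beside the members, from a list of 36 names of which 27 are in the table and 6 had no count in any library. In the fit over all mice 13 of them were tested, 0 were called in either direction, 1 had an unadjusted p under 0.05, and 9 had negative values, with a median of -0.033. In that fit 1.97% of all genes were called, 12.4% had such a p and 50.3% had negative values. The smallest p belonged to the major urinary proteins *Mup4* at -1.75 (SE 0.73, edgeR adjusted p = 0.314) and *Mup6* at -1.39 (edgeR adjusted p = 0.437). *Mup4* ranged from 17.2 to 7248 CPM over the libraries. At 8 weeks 1 of 10 was called, *Ptgds*, the brain-type prostaglandin D synthase, which rose by 0.78 (SE 0.15, edgeR adjusted p = 0.0541) in *iRhom2-/-* mice. Of all genes, 4.98% were called in that comparison. Without *WT* mouse 1 *Ptgds* was at 0.70 (edgeR adjusted p = 0.0892). It was at -0.23 at 10 weeks, -0.43 at 5 and 30 weeks and -0.084 over all mice, and was called in none of these. At 10 weeks and at 5 and 30 weeks edgeR called 0 of the list, and 1 had an unadjusted p under 0.05 in each. Such a p was found for 7.79% of all genes at 10 weeks and 14.2% at 5 and 30 weeks. The lipocalins of the epididymis that neighbour the members on chromosome 2, *Lcn5*, *Lcn6*, *Lcn9* and *Lcn10*, had no count in any of the 24 libraries, *Lcn8* had at most 7 counts and *Lcn12* at most 8.

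The genes of the nasal glands, a list of 22 names that includes the BPI fold proteins, were higher in sum than the members in every group. Over all mice 0 of 21 tested were called, 1 had an unadjusted p under 0.05 and 16 had negative values, with a median of -0.12. Of all genes tested over all mice, 1.97% were called, 12.4% had such a p and 50.3% had negative values. *Dmbt1*, which tracked *Lcn3*, *Lcn4* and *Obp2b*, differed by -2.33 (SE 0.85, edgeR adjusted p = 0.227), and *Bpifb4* by 0.21 (edgeR adjusted p = 0.552). At 8 weeks 4 of 21 fell in *iRhom2-/-* mice, namely *Bpifb9a* (-4.35), *Bpifb9b* (-4.08), *Bpifb5* (-3.87) and *Smr3a* (-2.98), with edgeR adjusted p of 0.0328 to 0.047. Of all genes tested at 8 weeks, 4.98% were called in either direction. Without *WT* mouse 1 these 4 were at -3.83, -3.53, -3.49 and -2.85 and all stayed past the threshold. Of the 21 genes, 13 had negative values at 8 weeks, against 50.2% of all genes. An unadjusted p under 0.05 was found for 8, against 19.8% of all genes. *Bpifb4* (0.58) and *Bpifb3* (0.44) went the other way and were not called. At 10 weeks edgeR called 0 and 3 had an unadjusted p under 0.05, against 7.79% of all genes. Among the 3 were *Bpifb9a* (4.23) and *Bpifb9b* (4.33), whose values had the opposite sign to those at 8 weeks, as had that of *Bpifb5* (4.08). Without *iRhom2-/-* mouse 2 the values of these genes at 10 weeks were 0.29, 0.10 and -0.06. The remaining gene of the 3 was *Bpifb3* (0.56), positive as at 8 weeks, and it stayed at 0.56 without *iRhom2-/-* mouse 2. At 5 and 30 weeks edgeR called 0, and 2 had an unadjusted p under 0.05, against 14.2% of all genes. The members' sum ranged 269-fold over the libraries, from 99.1 to 26695 CPM, against 28.8-fold for the other lipocalins and 13.3-fold for the nasal gland genes. Those sums hold steady, abundant genes, and single genes of both lists varied as much as the members. *Gm14743* ranged 4528-fold, *Mup5* 3590-fold, *Bpifb9a* 687-fold and *Bpifb9b* 600-fold. The standard deviation of log2 CPM within groups was above that of *Obp2a*, the lowest of the members, in 4 of 13 other lipocalins and 5 of 21 nasal gland genes.

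Markers of the tissue's own cell types varied much less. The mature OSN markers, such as *Omp* and *Cnga2*, summed to 9600 to 18042 CPM (1.88-fold), the sustentacular markers to 15233 to 35909 CPM (2.36-fold) and the respiratory markers to 2172 to 4472 CPM (2.06-fold), so the markers of the labelled tissue were present in every library. Receptors and other markers of vomeronasal neurons were near 0, at 2.69 to 9.54 CPM summed over 324 genes, of which 148 had no count in any library, while *Lcn3* alone reached 1273 CPM. Between genotypes 0 of the sustentacular, respiratory, erythrocyte, macrophage and vomeronasal markers were called by edgeR in any submission or over all mice. At most 4 genes of a list had an unadjusted p under 0.05. The filter on low counts left few of the 324 vomeronasal genes to test. They were 2 at 8 weeks, 3 at 10 weeks, 2 at 5 and 30 weeks and 3 over all mice. Of the mature OSN markers, 3 of 10 rose in *iRhom2-/-* mice at 8 weeks (2 without *WT* mouse 1). In that comparison 10 of 10 mature OSN markers had a positive value and an unadjusted p under 0.05, with a median of 0.49, against 4.98% of all genes called and 19.8% with such a p, while the 7 members had negative values. The lymphocyte markers spanned 17.0 to 1405 CPM and fell in *iRhom2-/-* mice for 2 of 8 genes at 8 weeks, *Jchain* (-4.98) and *Cd3d* (-3.26), and 1 of 8 at 5 and 30 weeks. The share of all genes called was 4.98% at 8 weeks and 1.07% at 5 and 30 weeks. Without *WT* mouse 1 of 8 weeks 1 was called, with *Jchain* at -2.34 and *Cd3d* at -2.28. *Jchain* was at 0.039 at 10 weeks and at 1.04 at 5 and 30 weeks (edgeR adjusted p = 0.991 and 0.764). At 10 weeks 0 of 8 lymphocyte markers were called, and 3 of 8 had negative values, against 48.6% of all genes. Over all mice 0 of 8 were called by edgeR, against 1.97% of all genes. An unadjusted p under 0.05 was found for 7 of 8, against 12.4% of all genes, and the median was -0.76. The macrophage markers had negative values for 8 of 8 genes over all mice, against 50.3% of all genes, 4 of them at an unadjusted p under 0.05. At 10 weeks 2 of 8 macrophage markers had negative values, against 48.6% of all genes. The part of these cells, or of the amount of gland in a dissection, in the levels of the lipocalins was not tested.

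**Figure D5:**
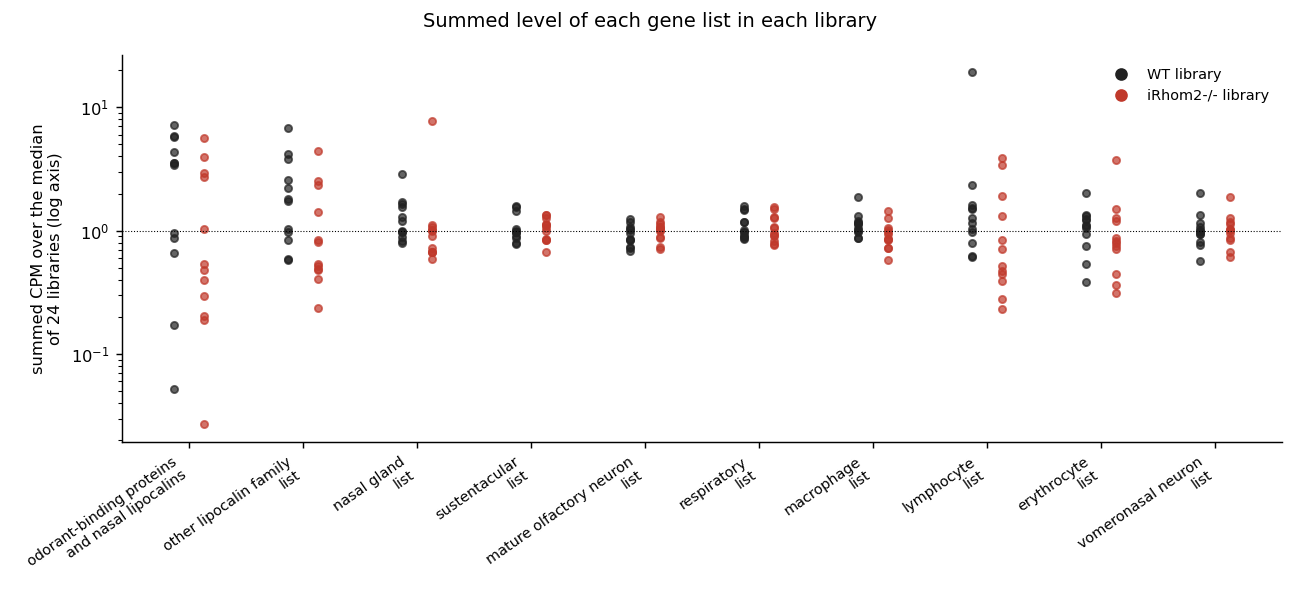
Summed CPM of the members and of the gene lists in each library, divided by the median of the 24 libraries, on a log axis, by genotype. Before this division the members' sum runs from 99.1 to 26695 CPM, whereas the sum of mature OSN markers runs from 9600 to 18042 CPM.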

How the data were processed

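Bulk poly-A RNAseq of the OE of 24 mice was used. The authors aligned reads to GRCm38 and estimated counts per gene with RSEM, and the deposited table holds these counts as whole numbers without normalization. How they were rounded is not given in the sources used here. The authors' own comparison is in the same table as log2 fold changes, a test score (likelihood ratio) and p-values with FDR, which were deposited by the authors and not used here. All 24 count columns were used, 12 tied to a single mouse and 12 to a genotype and submission. The library kit marks strand, and the strand setting of the counting is not given in the sources used here.

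Genes were filtered with filterByExpr, scaled by TMM and tested with edgeR 4.0.16 (quasi-likelihood, R 4.3.3), with Benjamini-Hochberg adjustment over all genes tested and a threshold of 0.1. Each submission was fitted alone, and all mice with submission as a term. The interaction, age (with genotype) and labelled sex (with age and genotype) were fitted too. CPM are TMM-normalized, and log2 CPM have a prior count of 2. Correlations used 100000 permutations of libraries. A count of 3 was taken as the limit that a count of 0 allows, at most 0.118 CPM without TMM. Library totals of 25333822 to 48660394 counts make counting error small beside the spread between mice. In 42 pairs of libraries within groups the chi-square per degree of freedom was at least 12.8, so none was counted as a duplicate. Promoters and synonyms are from RefSeq (GRCm38.p6), which held all 7 genes, and coordinates and transcripts from GENCODE vM21. Python 3.11.15, pandas 2.3.3, scipy 1.17.1 and Biopython 1.88 were used. The fits were tested on simulated data.

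Replicate numbers of the mice of 8 and 10 weeks recur in both genotypes. The deviations of mice of the same number from their group means had r of 0.117, 0.033 and 0.0037 at 8 weeks and 0.011, 0.216 and 0.111 at 10 weeks, so a number is not shown to pair mice. The alternatives were DESeq2 1.42.0, RLE scaling, other filters, a threshold of 0.05, other terms, males alone, the replicate block, and leaving out each library. Counting *Obp1b* and *Gm14743* as 1 gene, other scalings of *Rhbdf2*, and the lists without *WT* mouse 1 of 8 weeks or *iRhom2-/-* mouse 2 of 10 weeks, were added after seeing the data.

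The members, lists and tests were chosen with earlier results of these data known. Genes given by name are all members, *Rhbdf2*, the genes of the other-lipocalin and nasal gland lists past the threshold over all mice (or, if none, the 2 of smallest p), and the 3 genes most alike to each member by Pearson r. Other genes were named after their values were seen, which holds for *Ptgds*, *Bpifb3*, the genes called at 8 weeks and their values at other ages, *Mup5*, *Xist*, *Ddx3y* and the epididymal lipocalins.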

Additional observations from a re-analysis of the deposited data

Results flagged for a closer look

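Within the 6 *iRhom2-/-* libraries of 5 and 30 weeks, library 11 lay far above the others for *Obp2b* (855 CPM), *Lcn3* (320 CPM) and *Lcn4* (162 CPM). The gap between it and the next library took up most of the range of the group, beyond what Dixon's test allows at the 95% level. These were 3 of 14 sets of a gene and a group of 6 that were tested. The test was run on CPM and not on log2 CPM, and its rate of about 1 in 20 by chance is for normally distributed values. Within this group the highest and lowest library differed 1259-fold for *Obp2b*, 349-fold for *Lcn3* and 238-fold for *Lcn4*. That rate therefore need not hold here, and the test cannot decide whether library 11 is unusual. The 3 genes moved together across libraries, so the 3 are not independent of one another.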

How the results depend on the processing

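No member passed the threshold between genotypes under any alternative but 1. *Lcn3* was called at 8 weeks without *WT* mouse 1 (members called when each library was left out: 0 to 1 at 8 weeks, 0 to 3 between 10 and 8 weeks, and 0 in each other comparison). Leaving out each mouse gave values (log2 fold change) at 8 weeks of -2.69 to 0.39 for *Obp1a*, -2.67 to 0.38 for *Obp1b*, -2.98 to 0.83 for *Obp2a*, -4.10 to 4.35 for *Lcn3*, -5.08 to 3.30 for *Lcn4* and -3.40 to 0.15 for *Lcn11*, each highest without *WT* mouse 1. At 10 weeks they were -0.79 to 3.02 for *Obp1a*, -0.81 to 2.97 for *Obp1b*, -1.0 to 4.40 for *Obp2a*, -1.86 to 4.73 for *Obp2b*, -1.22 to 4.10 for *Lcn3*, -1.84 to 4.41 for *Lcn4* and -0.89 to 2.91 for *Lcn11*, each highest without *WT* mouse 2. There *Obp2a* and *Obp2b* were at -0.52 and -0.54 without *WT* mouse 1, -0.51 and -0.54 without *WT* mouse 3, -1.0 and -1.86 without *iRhom2-/-* mouse 2, and -0.33 and -0.22 with mice labelled male alone. *Lcn3* and *Lcn4* were at 0.26 and 0.035 without *iRhom2-/-* mouse 1, and *Lcn11* at 0.097 without *iRhom2-/-* mouse 3. Between 10 and 8 weeks *Obp2a* ranged from -0.64 (without *WT* mouse 2 of 10 weeks) to 1.64 and *Lcn11* from -1.56 to 0.30 (without *WT* mouse 1 of 8 weeks), and DESeq2 called 2, *Lcn3* (3.58) and *Lcn4* (3.23). At 5 and 30 weeks 0 of 126 values reversed. The cause of these changes was not tested.

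With the replicate number as a block, 0 members were called at 8 weeks, at 10 weeks and in the 12 mice of both ages. Values that reversed under the block were 0.37 for *Lcn3* at 8 weeks, and 1.78 for *Obp1a*, 1.63 for *Obp1b*, 1.16 for *Lcn3*, 0.99 for *Lcn4* and 1.38 for *Lcn11* at 10 weeks. In the 12 mice the block gave 0.29 for *Obp1a*, 0.26 for *Obp1b*, 0.72 for *Obp2a*, 0.036 for *Obp2b*, 1.21 for *Lcn3*, 0.44 for *Lcn4* and 0.00036 for *Lcn11*. The block called 1454 genes at 8 weeks, 46 at 10 weeks and 41 in the 12 mice (106 without it).

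Counts over all genes moved more. At 8 weeks 962 genes were called, against 2195 by DESeq2, 270 at a threshold of 0.05, 404 with 6 groups in 1 fit, 132 with males alone and 68 to 1300 without single libraries. At 10 weeks 37 were called, against 289 by DESeq2, 58 without a filter and 13 to 105 without single libraries. At 5 and 30 weeks 198 were called, against 916 by DESeq2, 119 without a filter, 51 at 0.05 and 52 to 241 without single libraries. Over all mice 410 were called, against 824 by DESeq2, 234 at 0.05, 242 with males alone, 132 without the submission and 299 to 727 without single libraries. The interaction called 10, against 495 by DESeq2, 3 at 0.05 and 0 to 204 without single libraries, and sex 0, against 3 by DESeq2, 2 without a filter and 0 to 6 without single libraries. DESeq2 gave no adjusted p for *Lcn3*, *Lcn4* and *Lcn11* at 8 weeks, *Obp1a* and *Obp1b* at 10 weeks, and *Obp1a*, *Obp1b* and *Lcn11* between the ages.

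Counting error was small beside the spread between mice for these genes. Age could not be a term at 5 and 30 weeks.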

Other observations

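The ratio of *Gm14743* to *Obp1a* counts ranged from 0.0167 to 0.412 over the 24 libraries, while the ratio of *Gm14744* to *Obp1a* ranged from 0.827 to 2.38 and that of *Obp1a* to *Obp1b* from 0.662 to 1.07. *Gm14743* ranged from 0.771 to 3490 CPM and *Gm14744* from 31.3 to 12814 CPM. Counted as 1 gene with *Gm14743*, *Obp1b* differed between genotypes by -1.22 at 8 weeks, -0.13 at 10 weeks, -0.51 at 5 and 30 weeks and -0.60 over all mice, and it was called in none of them by edgeR. *Dmbt1*, the gene outside the members that *Lcn3* and *Lcn4* followed most closely, ranged from 2.31 to 630 CPM.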
